A study of Mus musculus with 6 samples.

Results

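The opioid family consists of 4 receptor genes, Oprd1, Oprm1, Oprk1 and Oprl1, and 4 genes for the precursors of their peptide ligands, Penk, Pdyn, Pomc and Pnoc. These 8 of the 19938 genes measured were chosen by name, and the probe set of each was selected on its mean value over the 6 arrays, the highest being taken. Each of the 8 had only 1 probe set with a single gene name, so the mean values decided nothing here. The samples were enterospheres, spheres rich in enteric neural progenitors that were grown in suspension from the gut muscle of newborn C57BL/6 mice aged up to 12 hours. The 3 samples of the T3 group were kept for 1 day with triiodothyronine (T3, active thyroid hormone) at 100 nM, taking the labels' nm to mean nM. The 3 control samples were kept without it. In both groups, spheres had been grown with EGF and FGF for 4 and then 5 days and kept for 1 day in differentiation medium before T3 was added to some dishes, each sample came from 3 pooled mice, and total RNA was hybridised to 1 array.

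Opioid receptors are seven-transmembrane receptors that act through inhibitory G proteins. In neurons they lower cyclic AMP, close presynaptic calcium channels and open inward rectifier potassium channels. Enkephalins from Penk act mainly on the delta (Oprd1) and mu (Oprm1) receptors, dynorphins from Pdyn on the kappa receptor (Oprk1), beta-endorphin from Pomc on mu and delta, and nociceptin from Pnoc on the nociceptin receptor (Oprl1), which does not bind classical opioids. In the gut, myenteric neurons make enkephalins and carry opioid receptors, and opioid agonists slow propulsion and secretion.

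Values are normalised log2 expression values per probe set. The arrays had medians of 6.09 to 6.15 on this scale, and with 3 arrays a group their number limits precision. Detection calls were not used here. As a comparison for dim signal, 1228 odorant, vomeronasal and bitter taste receptor genes had a median control value of 3.89 and a 95th percentile of 5.43. Markers of enteric neural progenitors were above that 95th percentile for 6 of 7 measured genes, and of neurons for 12 of 13. The same held for 6 of 6 glia markers and for 10 of 10 fibroblast and mesenchyme markers. It also held for 7 of 8 smooth muscle markers, 4 of 5 endothelial markers and 3 of 3 markers of interstitial (Cajal) cells. Fewer were above it for macrophages and leukocytes, 3 of 7, and for epithelium, 2 of 8. The spheres thus carried signal of several cell types. The thyroid hormone response genes Klf9 and Hr were 3.63-fold and 3.78-fold higher in the T3 samples.

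Among the 8 genes, the delta opioid receptor gene Oprd1 and the nociceptin receptor gene Oprl1 were higher in T3 spheres, and no member was called lower. Oprd1 signal was 2.56-fold higher and Oprl1 signal 1.32-fold higher. The mu and kappa receptor genes and all 4 precursor genes did not pass the test. Calls are adjusted p-values under 0.05 in limma, with adjustment over all 19938 genes, of which 618, or 3.10%, were called, 2.28% as higher and 0.823% as lower. The 8 genes were proposed with results of these data in view, so their 2 calls are given as a description and not set against this background by a test. In these bulk samples, more or fewer cells of a type and more or less RNA per cell cannot be told apart.

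Oprd1 encodes the delta receptor, the main receptor of enkephalins, and is measured by probe set 10516852. Its log2 values were 10.03, 9.49 and 9.54 in T3 replicates 1, 2 and 3, against 8.27, 8.28 and 8.43 in control replicates 1, 2 and 3. All T3 arrays lay above all control arrays, with a gap of 1.06 between the lowest T3 and the highest control array, and T3 replicate 1 was the highest of the 6. The means were 9.69 ± 0.30 in T3 spheres and 8.33 ± 0.089 in control spheres (SD, n = 3 each). The log2 change was 1.36 ± 0.14 (SE), with a 95% interval of 1.04 to 1.67 and an adjusted p of 0.00240 (limma). It had rank 18 by size among the 454 genes called higher. Without T3 replicate 1 the change was 1.18, and the call held in each of the 6 fits that left out 1 array (adjusted p up to 0.0190).

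Oprl1 encodes the nociceptin receptor and is measured by probe set 10479685. Its log2 values were 6.78, 6.90 and 6.97 in T3 replicates 1, 2 and 3, against 6.42, 6.45 and 6.59 in control replicates 1, 2 and 3. The groups did not overlap, with a gap of 0.19 between them, while 19.5% of all genes had groups without overlap. The means were 6.88 ± 0.095 in T3 spheres and 6.48 ± 0.092 in control spheres (SD, n = 3 each). The log2 change was 0.40 ± 0.082 (SE), with a 95% interval of 0.21 to 0.59 and an adjusted p of 0.0376 (limma). This call lay near the threshold. Leaving out 1 of 4 arrays ended it (T3 replicate 2, adjusted p = 0.142; T3 replicate 3, 0.154; control replicate 1, 0.181; control replicate 2, 0.0801), as did centring each array on its 75th percentile (adjusted p = 0.0587).

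Oprm1, the gene of the mu receptor on which morphine acts, hardly differed in signal. Its log2 values were 6.78, 6.80 and 6.78 in the T3 replicates, against 6.77, 6.69 and 6.75 in the control replicates. The groups did not overlap, but the gap was 0.0075 on the log2 scale, and over all genes the groups of 3 did not overlap for 19.5%. The log2 change was 0.050 ± 0.065 (SE), with an adjusted p of 0.858 (limma). Its 95% interval, -0.098 to 0.20, excludes a change in signal as large as that of Oprd1 in either direction. In the RefSeq gene table Oprm1 overlaps Ipcef1, whose own probe set had a mean of 4.10 ± 0.10 in T3 spheres and 4.13 ± 0.15 in control spheres (SD, n = 3 each).

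Oprk1, the kappa receptor gene, had the lowest percentile of control signal among the members. Its log2 values were 4.21, 4.56 and 4.17 in the T3 replicates, against 4.56, 4.40 and 4.13 in the control replicates. The groups overlapped over nearly their whole range. The log2 change was -0.051 ± 0.14 (SE), with a 95% interval of -0.36 to 0.26 and an adjusted p of 0.951 (limma), and its sign turned without T3 replicate 3 or control replicate 1. The control mean of 4.36 was below the 95th percentile of the odorant, vomeronasal and taste receptor genes, so it is not known whether this signal was above background.

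**Figure D1:**
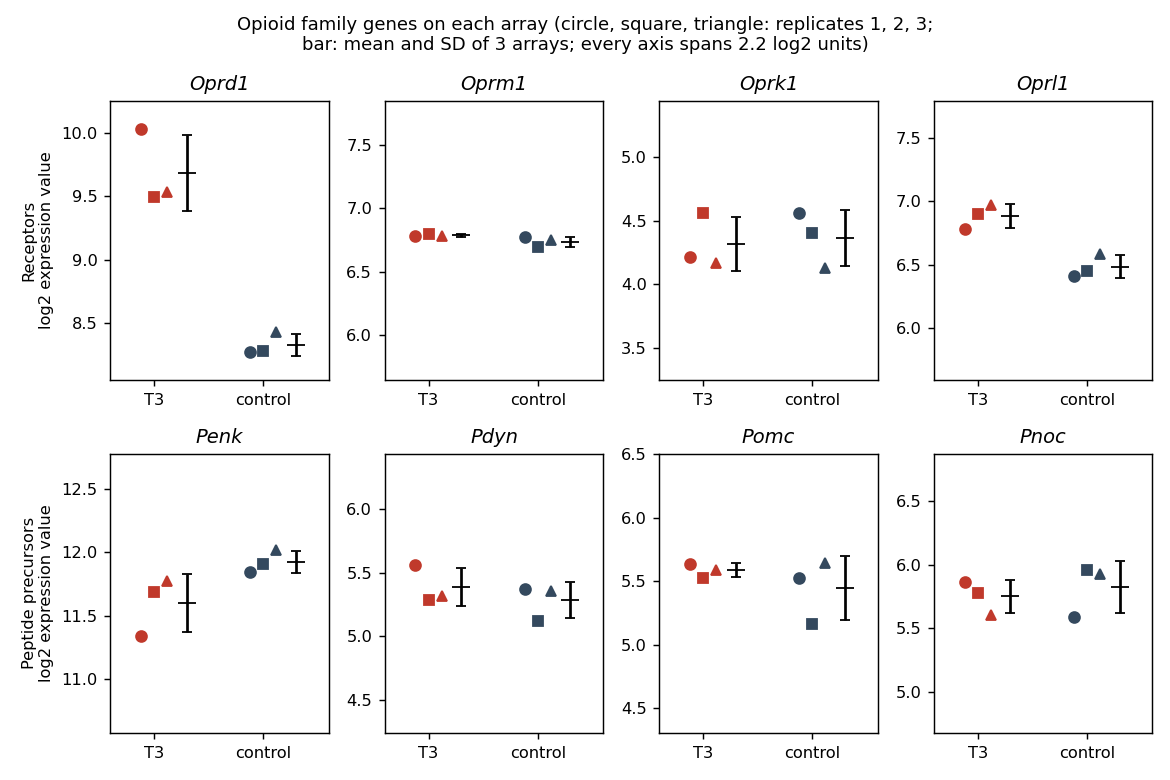
Log2 expression value (vertical axes, each spanning 2.2 log2 units) of the 4 receptor genes (top) and 4 precursor genes (bottom) on the 3 T3 arrays (red, left) and the 3 control arrays (dark, right). Circles, squares and triangles are replicates 1, 2 and 3, and bars are means with SD; Oprd1 stands out with a gap of 1.06 between the groups, while Oprk1, Pdyn, Pomc and Pnoc overlap.

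Penk encodes proenkephalin, the precursor of Met- and Leu-enkephalin, and is measured by probe set 10511363. It is made by neurons and, in developing animals, also by mesenchymal cells. Its log2 values were 11.34, 11.68 and 11.77 in T3 replicates 1, 2 and 3, against 11.84, 11.91 and 12.01 in control replicates 1, 2 and 3. Every T3 array lay below every control array, by 0.071 at the closest, and T3 replicate 1 lay furthest below. Groups without overlap were found for 19.5% of all genes. The means were 11.60 ± 0.23 in T3 spheres and 11.92 ± 0.086 in control spheres (SD, n = 3 each). The log2 change was -0.32 ± 0.12 (SE), with a 95% interval of -0.59 to -0.059. Its unadjusted p in the fit over all genes was 0.0221 (limma). Over all genes, 13.7% had an unadjusted p under 0.05. The change of Penk did not pass after adjustment (adjusted p = 0.236, limma), and without T3 replicate 1 it was -0.19.

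The array with the highest Oprd1 value, T3 replicate 1, was also the one with the lowest Penk value. On the first principal component of all genes, T3 replicate 1 was at -16.03, the other T3 arrays at -11.07 and -11.52, and the control arrays at 10.37 to 14.59. T3 replicate 1 was therefore also the T3 array furthest from the control arrays over all genes. For Oprl1, in contrast, T3 replicate 1 had the lowest of the T3 values.

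The other 3 precursor genes had lower signal, and their groups overlapped. Pdyn, the prodynorphin gene, had log2 values of 5.56, 5.29 and 5.32 in the T3 replicates, against 5.37, 5.12 and 5.36 in the control replicates. Pomc, whose product is cut to beta-endorphin, corticotropin and melanocortins, had values of 5.64, 5.53 and 5.59 in the T3 replicates, against 5.53, 5.16 and 5.64 in the control replicates. Pnoc, the precursor of nociceptin, had values of 5.86, 5.78 and 5.61 in the T3 replicates, against 5.59, 5.96 and 5.92 in the control replicates. None of the 3 differed by more than the spread between arrays.

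Their log2 changes were 0.10 ± 0.10 (SE) for Pdyn, 0.14 ± 0.12 (SE) for Pomc and -0.074 ± 0.11 (SE) for Pnoc, with adjusted p of 0.788, 0.745 and 0.887 (limma). The 95% intervals reached from -0.13 to 0.34 for Pdyn, from -0.13 to 0.41 for Pomc and from -0.34 to 0.19 for Pnoc. A change of Pnoc as large as the 0.40 of its receptor gene Oprl1 lay outside its interval in both directions. The control means of Pdyn, 5.28, and Pomc, 5.45, lay at the 95th percentile of the dim comparison genes or close to it, and that of Pnoc was 5.82. Array background compresses differences at such levels, so a change in RNA could be larger than the change in signal.

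**Figure D2:**
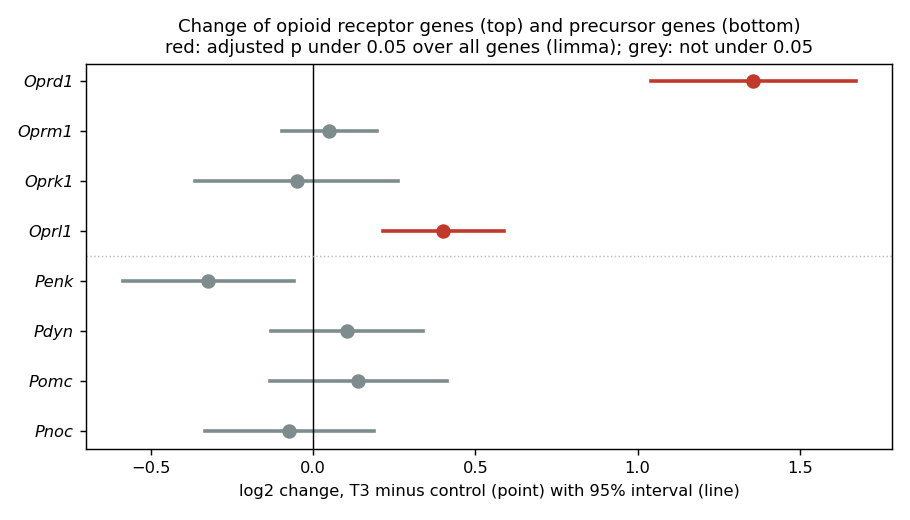
Log2 change, T3 minus control, with its 95% interval from limma (horizontal axis) for the receptor genes (upper rows) and the precursor genes (lower rows). Red marks the genes with an adjusted p under 0.05 over all genes, Oprd1 at 1.36 and Oprl1 at 0.40; the intervals of Oprm1, Oprk1, Pdyn, Pomc and Pnoc include 0, and that of Penk, not called, reaches from -0.59 to -0.059.

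By rank of control signal over all genes, Penk was at percentile 99.4, Oprd1 at 68.8, Oprm1 at 47.4, Oprl1 at 44.5, Pnoc at 36.2, Pomc at 30.6, Pdyn at 28.2 and Oprk1 at 14.6. Probe sets differ in how strongly they bind, so these ranks describe signal and do not order the genes by RNA amount. Penk and Oprd1 were above every one of the 1228 dim comparison genes. The enkephalin precursor and the delta receptor on which enkephalins act were thus both well above dim signal in control spheres.

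**Figure D3:**
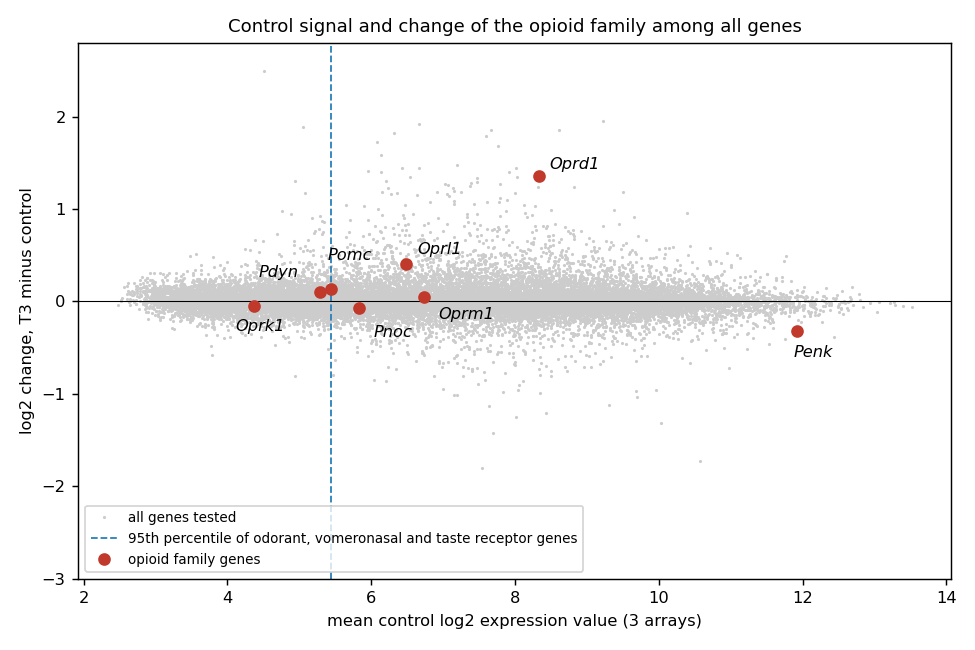
Mean control log2 value (horizontal axis) and log2 change, T3 minus control (vertical axis), of all 19938 genes (grey) and the 8 opioid family genes (red). The dashed line marks the 95th percentile of the odorant, vomeronasal and taste receptor genes, 5.43; Oprd1 lies at 8.33 with a change of 1.36, Penk at 11.92 with a change of -0.32, and Oprk1 and Pdyn lie left of the line.

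In the gut, opioid receptors are known mainly from neurons, and part of the neuron markers were also higher with T3. Of 14 listed neuron markers 13 were measured. Called higher were 3 of them, Prph at 0.94, Nos1 at 0.50 and Snap25 at 0.33 on the log2 scale, and none was called lower. The other 10 were not called, among them the general neuron markers Elavl3 at -0.13, Elavl4 at 0.021, Tubb3 at 0.029 and Uchl1 at -0.025. Tac1, not called, was at 0.72, so the mean over the 13 rests partly on a few genes with large changes. The mean log2 value over the 13 was 9.45 to 9.54 on the T3 arrays and 9.13 to 9.36 on the control arrays. Set against this mean array by array, Oprd1 was at 0.49, 0.039 and 0.054 in T3 replicates 1, 2 and 3. In the control replicates it was at -0.98, -1.08 and -0.70, a difference of 1.11 with no overlap. The Oprd1 groups were already 1.06 apart without this step. The neuron mean ran only from 9.13 to 9.54 over all arrays, so setting Oprd1 against it could not make the groups overlap. The lack of overlap therefore had to follow and adds nothing to the Oprd1 values. Oprl1 set against the same mean differed by 0.16 and its groups overlapped. Set against the progenitor, glia and fibroblast means given below, Oprl1 differed by 0.42, 0.36 and 0.37, each without overlap. The part of the neuron markers in the Oprd1 and Oprl1 results was not tested.

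The mean levels of progenitor, glia and fibroblast markers did not separate the groups, although single markers were called. The mean log2 value of the 7 progenitor markers was 10.26 to 10.42 on the T3 arrays and 10.35 on each control array. That of the 6 glia markers was 9.89 to 10.01 on the T3 arrays and 9.80 to 9.98 on the control arrays. That of the 10 fibroblast and mesenchyme markers was 9.99 to 10.10 on the T3 arrays and 9.96 to 10.07 on the control arrays. Each of these 3 pairs of ranges overlapped. None of the 7 progenitor markers was called. Gfra3, at 0.59, was the 1 glia marker called, and of the fibroblast and mesenchyme markers Thy1 was called higher at 1.24 and Twist1 lower at -0.49. The mean over 5 endothelial markers was 6.20 to 6.44 on the T3 arrays and 6.32 to 6.46 on the control arrays, and 2 of them were called lower, Egfl7 at -0.70 and Kdr at -0.41. The mean over 8 smooth muscle markers, in contrast, was 7.43 to 7.52 on the T3 arrays and 7.28 to 7.42 on the control arrays, with 2 markers called higher and 2 lower. That over 3 genes marking interstitial (Cajal) cells, which pace gut contractions, was 10.19 to 10.26 on the T3 arrays and 9.95 to 10.12 on the control arrays, and the part of these markers in the results was not tested. Penk set against the fibroblast mean was lower in T3 spheres by a log2 difference of -0.35, without overlap. Set against the neuron mean, Penk was lower by -0.57, also without overlap. On every T3 array Penk was already lower, and the neuron mean higher, than on every control array. The lack of overlap against the neuron mean therefore had to follow and adds nothing to the Penk values. The fibroblast mean includes Thy1 at 1.24, while the median change of its 10 markers was -0.037. The -0.35 therefore depends in part on Thy1, and a mean without it was not computed. These comparisons within arrays were chosen after the values were seen and have no test.

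The promoter windows of the members are shown for Oprd1, the member with the largest change, and for Pomc, the only member whose window held the core hexamer of thyroid hormone response elements. RefSeq promoter windows of 300 bases, 250 before and 50 from the transcript start, were found for 5 members, with 10 windows in all. Capitals mark matches on either strand to AGGTCA, the hexamer bound by nuclear receptors, to CACGTG, the E box bound by basic helix-loop-helix factors, and to GGGCGG, the GC box bound by Sp1. Both sequences are from GRCm38.p6, Oprd1 at chr4:132144437-132144736 on the minus strand and Pomc at chr12:3954695-3954994 on the plus strand, written 5′ to 3′ along the gene.
Oprd1: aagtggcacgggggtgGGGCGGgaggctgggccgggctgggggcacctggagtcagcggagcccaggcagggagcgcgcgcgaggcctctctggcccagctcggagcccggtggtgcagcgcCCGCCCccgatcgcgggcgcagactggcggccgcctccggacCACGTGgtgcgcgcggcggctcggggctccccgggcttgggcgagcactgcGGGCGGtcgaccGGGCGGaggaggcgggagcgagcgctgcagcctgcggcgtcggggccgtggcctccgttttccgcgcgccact
Pomc: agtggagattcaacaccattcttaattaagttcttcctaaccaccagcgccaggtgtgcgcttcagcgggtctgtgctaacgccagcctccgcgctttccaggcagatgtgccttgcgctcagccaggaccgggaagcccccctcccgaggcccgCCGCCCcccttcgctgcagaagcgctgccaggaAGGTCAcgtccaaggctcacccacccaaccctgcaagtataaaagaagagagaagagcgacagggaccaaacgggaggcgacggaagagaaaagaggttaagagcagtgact

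The Oprd1 window held 4 GC boxes and 1 E box, the E box starting at position -86 from the transcript start, and no AGGTCA. GC boxes were found in 35.7% and E boxes in 7.15% of the 32851 windows of this length in the table, and AGGTCA in 16.3%. The Oprd1 window held 43 CpG dinucleotides, more than 97.4% of all windows, against a median of 7 per window. The Pomc window held 1 AGGTCA and 1 GC box. None of the 3 windows of Oprl1, the 3 of Oprm1 or the 2 of Pdyn held any of the motifs. The direct repeat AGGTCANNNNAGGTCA, the classical thyroid hormone response element, was found in 0.0152% of all windows and in none of the 10 windows of the 5 members searched. Oprk1, Penk and Pnoc were not searched. These are matches of letters within a short window, and elements at other positions were not searched.

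Genes that act with the opioid receptors were described from 5 lists with 53 measured genes. Of these, 4 were called higher and 2 lower, while over all genes 2.28% were called higher and 0.823% lower. The median log2 change of the 53 was 0.11, against 0.0088 over all genes. No test compared the lists with all genes. Groups without overlap, given below for single genes, were found for 19.5% of all genes. The lists were drawn up with earlier results of these data known.

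Of the genes that process peptide precursors, 1 of 8 measured genes was called. Pcsk1n, the inhibitor of prohormone convertase 1, had log2 values of 10.83, 10.70 and 10.84 in the T3 replicates, against 10.06, 10.43 and 10.12 in the control replicates. Its groups did not overlap, and the log2 change was 0.59 ± 0.11 (SE) with an adjusted p of 0.0241 (limma). Of the fits without 1 array, only that without control replicate 2 kept the call (adjusted p up to 0.115 in the others). It was also lost with the replicate number as a block (adjusted p = 0.0502). The convertase gene Pcsk1 itself was at 0.53 (adjusted p = 0.0812), Scg5, the chaperone of convertase 2, at 0.49 (adjusted p = 0.0522) and the carboxypeptidase gene Cpe at -0.11 (adjusted p = 0.715), and none of these 3 passed. The median of the list was 0.13.

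Of 8 measured genes for peptidases that break down opioid peptides, 1 was called. Ace, angiotensin-converting enzyme, which also cleaves enkephalins, had log2 values of 9.59, 9.32 and 9.46 in the T3 replicates, against 7.84, 8.30 and 7.89 in the control replicates. All T3 arrays were above all control arrays. The log2 change was 1.45 ± 0.13 (SE), a 2.73-fold higher signal, with an adjusted p of 0.00131 (limma), and the call held without any 1 array. Mme, the gene of neprilysin, the peptidase best known for cleaving enkephalins, was at 0.11 with a control mean of 4.67 and an adjusted p of 0.646. The median of the list was 0.064.

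Of 15 genes for inhibitory G proteins and RGS proteins, which end G protein signals, only Rgs4 was called. Rgs4 had log2 values of 7.09, 7.10 and 7.46 in the T3 replicates, against 7.64, 7.82 and 7.81 in the control replicates. The groups did not overlap. The log2 change was -0.55 ± 0.11 (SE) with an adjusted p of 0.0380 (limma), and of the fits without 1 array only that without T3 replicate 3 kept the call (adjusted p up to 0.145 in the others). Centring arrays on their median also ended it (adjusted p = 0.0551). The G protein genes Gnai2 and Gnao1 were at 0.0037 and 0.15 and did not pass (adjusted p = 0.994 and 0.462). The median of the list was 0.13.

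Of 10 measured genes for receptor kinases, arrestins and trafficking proteins, none was called by limma. An unadjusted p under 0.05 was found for 3 of them, and for 13.7% of all genes. The smallest p belonged to Ackr3, an atypical receptor that takes up opioid peptides, at 0.47 (adjusted p = 0.0839), and to Rtp4, a chaperone of opioid receptors, at 0.23 (adjusted p = 0.185). The arrestin genes Arrb1 and Arrb2 were at -0.015 and 0.12. The median of the list was 0.042.

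Of 12 genes for the channels and adenylyl cyclases downstream of the receptors, 2 were called higher and 1 lower. Kcnj5, a subunit of the potassium channel opened by G proteins, had log2 values of 9.69, 9.35 and 9.46 in the T3 replicates, against 8.74, 8.98 and 8.55 in the control replicates. Cacna1a, the pore of P/Q-type calcium channels, had values of 8.92, 8.93 and 8.95 in the T3 replicates, against 8.53, 8.64 and 8.46 in the control replicates. Adcy1, a calcium-stimulated adenylyl cyclase that inhibitory G proteins restrain, had values of 7.29, 7.35 and 7.34 in the T3 replicates, against 7.79, 7.66 and 7.97 in the control replicates. For all 3 the groups did not overlap.

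The log2 changes were 0.74 ± 0.13 (SE) for Kcnj5, 0.39 ± 0.072 (SE) for Cacna1a and -0.48 ± 0.088 (SE) for Adcy1, with adjusted p of 0.0191, 0.0262 and 0.0261 (limma). Kcnj5 did not pass when T3 replicate 1, T3 replicate 3 or control replicate 1 was left out (adjusted p up to 0.0921). With 1 array left out, Cacna1a and Adcy1 passed only without control replicate 2 (adjusted p up to 0.132 in the others). With the replicate number as a block, Cacna1a did not pass either (adjusted p = 0.0599). Kcnj3, another potassium channel subunit, was at 0.21 and Cacna1b, the N-type calcium channel, at 0.21, and neither passed (adjusted p = 0.275 and 0.324). The median of the list was 0.12.

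**Figure D4:**
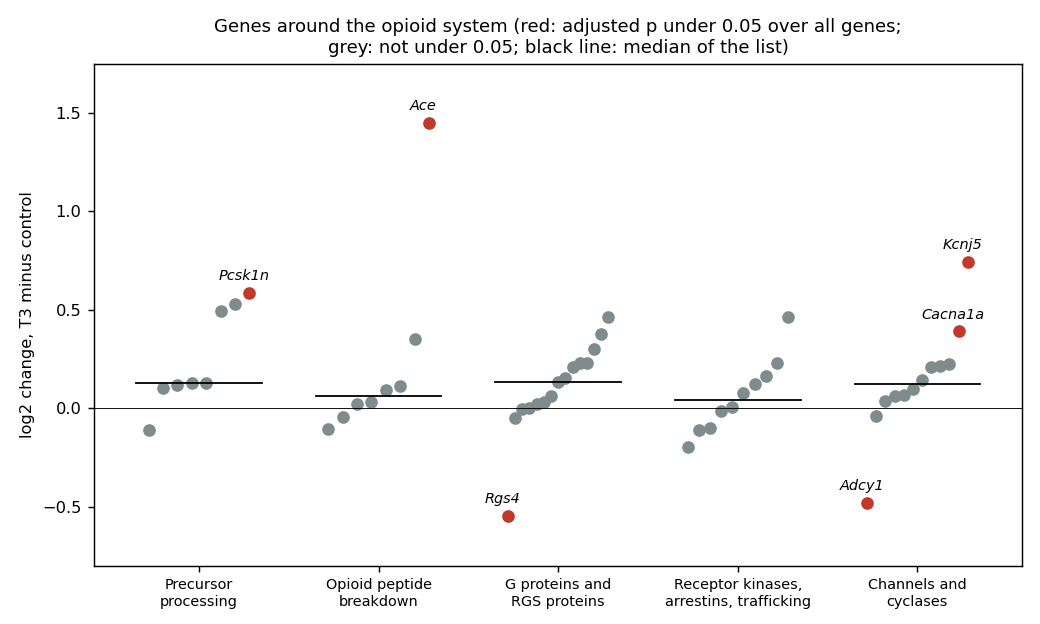
Log2 change, T3 minus control (vertical axis), of each measured gene of the 5 lists around the opioid system (horizontal axis), with the median of each list as a black line. Red marks the 6 genes with an adjusted p under 0.05, of which Ace at 1.45 is the highest and Rgs4 at -0.55 the lowest; the medians of the lists lie between 0.042 and 0.13.

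The genes with the profile most like that of Oprd1 over the 6 arrays were Trp53inp2, Pik3r2, Slfn5, Fbln7 and Eml2, with Pearson correlations of 0.997, 0.997, 0.997, 0.995 and 0.995. Their log2 changes with T3 ran from 0.14 for Eml2 to 0.98 for Slfn5. The genes most like Penk were Nans, Glipr2, Lgals1, Leprot and Rnf130, with correlations of 0.996 to 0.998 and log2 changes between -0.34 and -0.090. These correlations over 6 points contain the difference between the groups, come from a search over all genes and share the arrays, and are given as a description.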

How the data were processed

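Total RNA of 6 enterosphere samples was measured on 1 Affymetrix array each. The deposited table holds log2 values of 35556 probe sets, as the authors made them, and RMA and Partek version 6.5 are named in the submitters' processing notes. Settings, genome build and filters: not given in the sources used here. Quantile normalization, a usual step of RMA, removes changes common to most genes. Groups came from the labels, which do not say whether the samples of a group were separate cultures, so that p-values reflect only how far these samples scatter, which may be technical.

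Of the probe sets, 21789 had 1 gene symbol in the platform annotation, and a gene was represented by the probe set with the highest mean, leaving 19938 genes. T3 minus control was tested with the lmFit and eBayes functions of limma 3.58.1 (R 4.3.3, two-sided, Benjamini-Hochberg over all genes), and the procedure was tested on simulated data. SE and intervals are limma's. Promoter windows are from RefSeq, GRCm38.p6. The named genes were the 8 members, the called genes of each list or the 2 of smallest p, the 5 genes most like Oprd1 and Penk, and Klf9 and Hr. Genes outside this rule (Ipcef1, Pcsk1, Scg5, Cpe, Mme, Gnai2, Gnao1, Arrb1, Arrb2, Kcnj3, Cacna1b, the cell type markers and neighbouring genes) were chosen after their values were seen. The members and lists were chosen with earlier results of these data known.

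Alternatives were a replicate block, renewed quantile normalization, 3 centrings, removal of dim genes, averaging the probe sets of a gene, probe sets on their own, trend with robust fitting, array weights and leaving out each array. Same-numbered arrays had correlations of their deviations of 0.179, 0.017 and 0, and differently numbered arrays had -0.176 to 0.114. These values do not decide whether the samples were paired. The labels name no pairing, so the main fit used none, and the replicate block was run as an alternative.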

Additional observations from a re-analysis of the deposited data

How the results depend on the processing

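Oprd1 stayed called and higher under all 17 alternatives, with a log2 change of 1.18 to 1.45. The number of members called was 1 after centring on the 75th percentile, when Oprl1 was at 0.38, and 1 without the dimmest 50% of genes, which leaves Oprl1 untested, and 1 to 2 when 1 array was left out, when Oprl1 was at 0.36 to 0.45. With array quality weights 3548 genes were called in place of 618, Pdyn was at -0.024 and Pnoc at 0.091, opposite in sign to the main fit. Leaving out 1 array gave 191 to 640 calls, and values of -0.17 to 0.048 for Oprk1 and -0.0026 to 0.24 for Pomc. Oprk1 was at 0.022 without T3 replicate 3 and 0.048 without control replicate 1, and Pomc at -0.0026 without control replicate 2. The cause of these differences was not tested, apart from the dim filter.

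Calls in the list of precursor processing were 0 with the replicate block, 2 after renewed quantile normalization, 75th percentile centring or without the dimmest 25% of genes, 3 after median centring, without the dimmest 50% or with trend and robust fitting, 4 with array weights, and 0 to 2 without 1 array. For peptide breakdown they were 2 after renewed quantile normalization, without the dimmest 50% of genes or with array weights, and 1 to 2 without 1 array. For G proteins and RGS proteins they were 3 without the dimmest 50%, 2 with trend and robust fitting, 7 with array weights and 0 to 2 without 1 array. For kinases and arrestins they were 3 with array weights, and 0 without any 1 array. For channels and cyclases they were 6 with array weights and 0 to 3 without 1 array. The replicate block gave 472 calls in all and kept the calls of Oprd1 and Oprl1; of the named list genes it ended those of Pcsk1n and Cacna1a, at adjusted p of 0.0502 and 0.0599. Centring on the median of the genes tested was added after seeing the data. No scaling moved the median change of all genes by more than 0.0298.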

Other observations

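The protein-coding genes next to the members were taken from the RefSeq gene table. Those beside Oprd1, Epb41 and Ythdf2, had no probe set of their own single name and were not analysed here. Myt1 and Lkaaear1, on either side of Oprl1, were at 0.087 and 0.033 on the log2 scale, and neither passed. Rgs19, from the list of RGS proteins and not among these neighbours, was at -0.0044 and did not pass. Beside Pomc, Efr3b, which helps to hold a lipid kinase at the plasma membrane, was at 9.10 ± 0.13 in T3 spheres and 8.28 ± 0.12 in control spheres (SD, n = 3 each), a log2 change of 0.82 with an adjusted p of 0.00370 (limma), while Pomc itself did not pass. Npbwr1, a neuropeptide receptor gene next to Oprk1, was at 0.29 and did not pass (adjusted p = 0.172).

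Among transmitter genes of enteric neurons, Nos1, which makes nitric oxide in inhibitory neurons, was higher at 11.59 ± 0.086 in T3 spheres and 11.09 ± 0.17 in control spheres (SD, n = 3 each). Tac1, the precursor of substance P in excitatory neurons, had a log2 change of 0.72 ± 0.24 (SE) with an adjusted p of 0.196 (limma). Chat, which makes acetylcholine, was at -0.0096.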
